A study of Mus musculus with 45 samples.

Results

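A set of 10 genes of the Notch pathway are described here, out of 54532 genes counted, in mouse hippocampal primary neurons under 9 conditions of synaptic activity and excitotoxic stimulation. The 10 members were taken by name: the receptors Notch1, Notch2 and Notch3, the ligands Dll1 and Jag1, and the transcription factors Hes1, Hes5, Hes6, Hey1 and Hey2. Each name matched 1 row of the count table, and all 10 had a mean of at least 1 CPM (normalised read count scaled to the library size) over the 45 libraries. The group was selected on the response of Hes5 to TBOA, so that response is given as a description without a test. In it Hes5 had the lowest log2 fold change of the 13592 genes with a mean of at least 1 CPM.

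The cultures came from the hippocampi of newborn C57BL/6N mice, were given AraC (an inhibitor of dividing cells) on day 3 in vitro, and were treated on day 10 or 11. Control cultures were untreated. Bicuculline (Bic, 50 µM), which blocks GABA type A receptors and so sets off action potential (AP) firing, was applied for 0.5, 1 or 2 h. In the short protocol (SP), 0.5 h of Bic was followed by 0.5 h of intervention, and in the long protocol (LP) both steps lasted 1 h, with Bic left in place throughout. The interventions were tetrodotoxin (TTX, 1 µM), a sodium channel blocker that stops AP firing, TTX with bath-applied NMDA (30 µM), which models toxic NMDA receptor signaling, and, in the LP only, TBOA (50 µM), an inhibitor of glutamate transporters that causes glutamate spillover. Culture preparations 1, 3, 6, 7 and 8 each gave 1 library of every condition, which makes 5 libraries in each of 9 conditions.

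Notch receptors sit at the cell surface and are activated by Delta and Jagged ligands on a neighboring cell. ADAM proteases and γ-secretase then cut the receptor, and its intracellular domain enters the nucleus, where it binds the DNA-binding protein RBPJ and turns on Hes and Hey genes. In the hippocampus the pathway is best known for keeping neural stem cells and astrocytes in an undifferentiated or glial state, with HES factors repressing proneural genes, and its components are also present in mature neurons.

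Hes5 and Hey2 carried the largest responses, and the DNA upstream of their RefSeq start sites is shown here because both fell together in the LP active effect described below. Promoter windows of 300 bases (250 before to 50 after the start, GRCm38.p6) were given for 8 of the 10 members. Hes1 and Hey1 had no entry. The 250 bases before the start are printed 5′ to 3′ on the strand of the gene, with matches to the RBPJ core TGGGAA, on either strand, in capitals. The Hes5 sequence is chr4:154960673-154960922 on the plus strand, and the Hey2 sequence is chr10:30842784-30843033 on the minus strand.
Hes5: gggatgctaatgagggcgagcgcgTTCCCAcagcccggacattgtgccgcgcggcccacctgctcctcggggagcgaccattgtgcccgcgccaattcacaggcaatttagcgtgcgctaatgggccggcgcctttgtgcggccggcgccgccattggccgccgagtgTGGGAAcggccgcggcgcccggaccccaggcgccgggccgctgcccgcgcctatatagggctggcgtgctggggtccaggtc
Hey2: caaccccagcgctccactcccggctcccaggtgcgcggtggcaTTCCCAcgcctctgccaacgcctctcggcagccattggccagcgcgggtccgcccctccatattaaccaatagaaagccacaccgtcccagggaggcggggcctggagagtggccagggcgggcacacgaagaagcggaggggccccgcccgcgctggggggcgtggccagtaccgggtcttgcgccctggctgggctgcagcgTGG
The Hes5 window held 2 matches to the core, at bases -226 to -221 (minus strand) and -82 to -77 (plus strand) from the start. The Hey2 window also held 2, at bases -207 to -202 (minus strand) and across the start from -3 to 3 (plus strand), so the capitals at the end of the printed Hey2 sequence are the first bases of that match. None of the windows of Notch1, Notch2, Notch3, Dll1, Jag1 and Hes6 held the core. Of 32851 windows of all genes, 25.6% held at least 1 match and 3.79% held at least 2. The N-box CACNAG, the site bound by HES factors, had no match on either strand in the windows of Hes5, Hey2 and Jag1. It had 3 matches in that of Notch1, 2 of which overlap, 2 in that of Notch3 and 1 in that of Notch2. In Dll1 and Hes6, which have 2 windows each, 1 window had no match and the other held 1 (Dll1) or 2 (Hes6). Of all windows, 42.5% held the N-box. The cyclic AMP response element TGACGTCA, a palindrome, was in no member's window and in 1.79% of all windows. Letters in a window are a description and say nothing of binding in these cells.

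The libraries held between 11316580 and 81129276 reads on genes, with a median of 26239614. All 5 neuron markers were high in every library, with the lowest, Rbfox3, at 161 to 233 CPM. The astrocyte marker Gfap reached 154 to 665 CPM, whereas Cldn5 of endothelium, P2ry12 of microglia and Sox10 of oligodendrocytes were at or near 0, with at most 0.357 CPM in any library. In such bulk samples, fewer cells of a type and less RNA per cell cannot be told apart.

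Read per kilobase of exon, which allows levels to be compared between genes, Hes6 was the most abundant member at a mean of 12.2 CPM per kb over the 45 libraries, followed by Hey1 at 7.06. Hes5 stood at 1.96, close to Notch3 (1.79), Hes1 (1.73), Notch2 (1.54), Dll1 (1.37), Jag1 (1.02) and Notch1 (1.00), and Hey2 was the lowest at 0.274. In reads, which also depend on transcript length (1363 bases for Hes5), Hey2 and Hes5 had the lowest medians over the libraries, at 32 (5 to 217) for Hey2 and 69 (14 to 429) for Hes5.

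**Figure D1:**
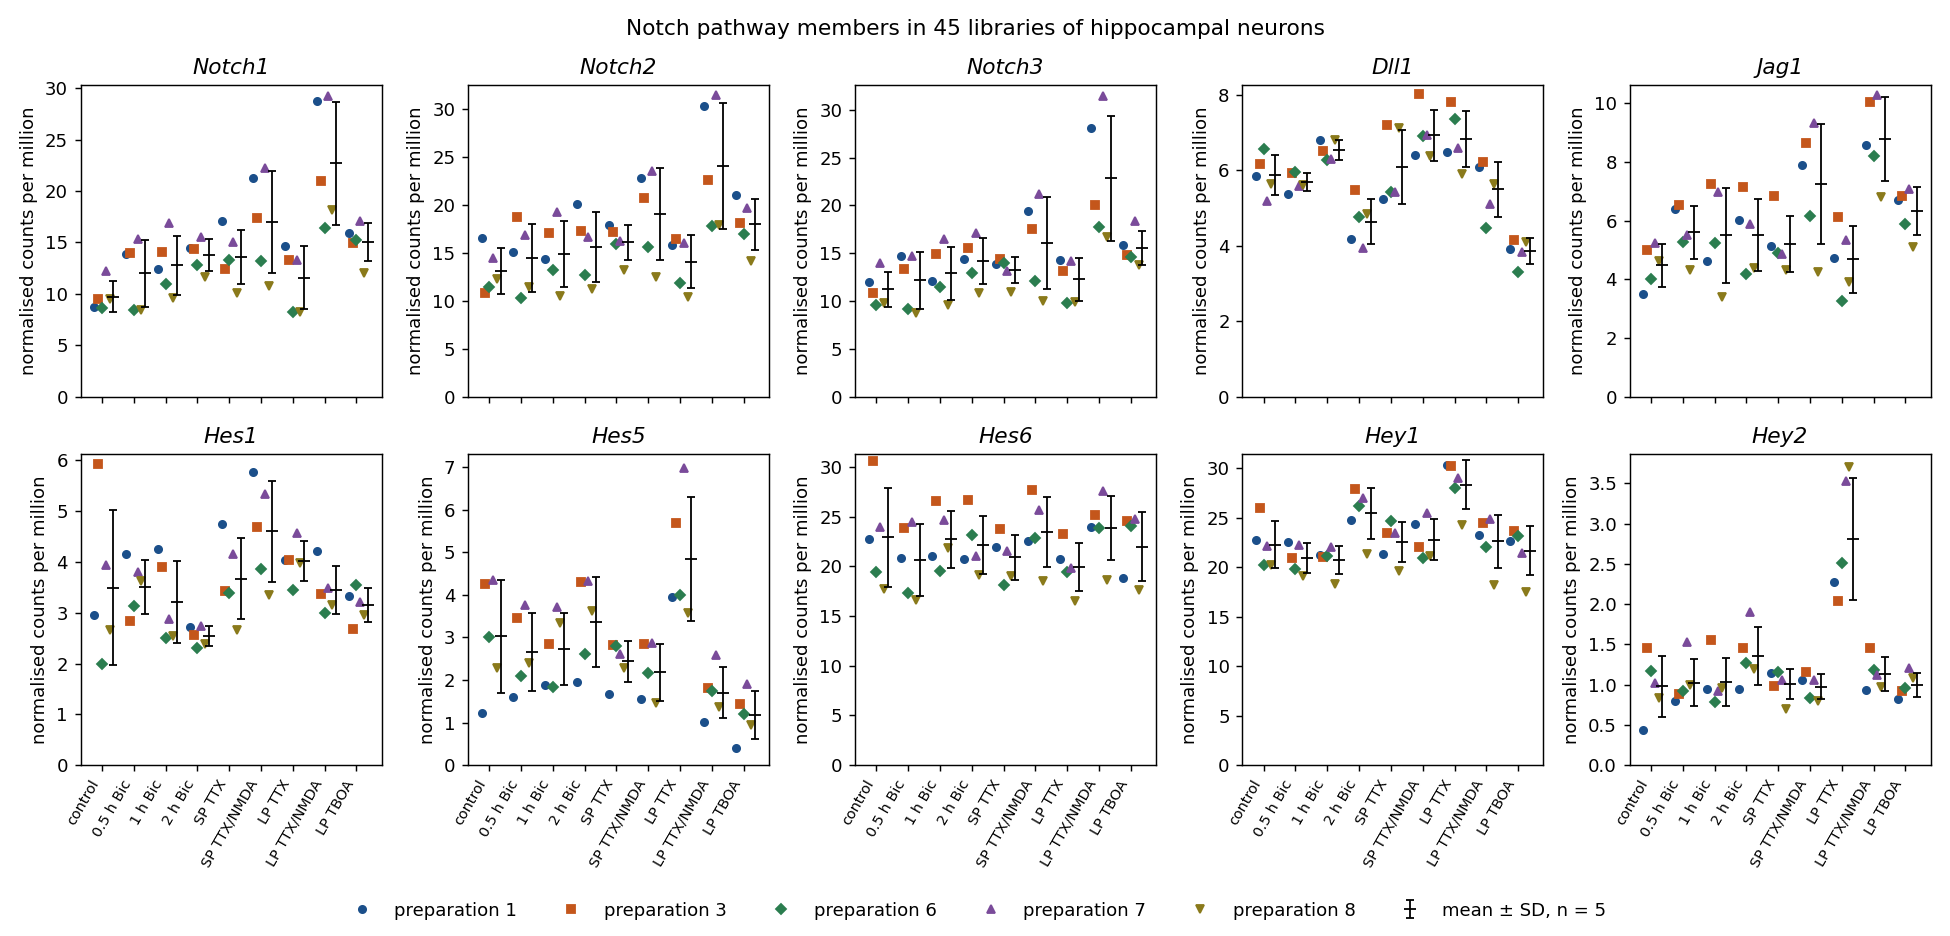
Normalised read counts in CPM (y axis, linear from 0) of the 10 members in each of the 9 conditions (x axis), with 1 symbol for each culture preparation and the mean ± SD of 5 libraries in black. Hes5 is lowest in LP TBOA and highest in LP TTX, Hey2 stands above its other conditions in LP TTX, and Notch1, Notch2, Notch3 and Jag1 are highest in LP TTX/NMDA.

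Hes5 (ENSMUSG00000048001, chr4:154960923-154962371, plus strand) encodes a transcriptional repressor that is a classical target of Notch signaling. In the order of preparations 1, 3, 6, 7 and 8, which all further lists follow, the level of Hes5 after 2 h of Bic was 1.95, 4.30, 2.62, 4.32 and 3.61 CPM. With TBOA during the second hour it was 0.402, 1.44, 1.21, 1.91 and 0.937 CPM. Every TBOA library was below every 2 h Bic library, and each preparation was lower with TBOA than without it. The log2 fold change was -1.65 (SE 0.26), and no other of 13592 genes with a mean of at least 1 CPM had so low a value. The next genes in that order were Mir132 at -1.11, Inhba at -1.08 and Mir212 at -0.99.

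The other members differed less between TBOA and 2 h Bic, and these values are likewise descriptive because the same contrast selected Hes5. Hey2 had a log2 fold change of -0.49 (SE 0.21) and was lower in 5 of 5 preparations, as were Hey1 at -0.23 (SE 0.08) and Dll1 at -0.24 (SE 0.13). Hes1, a repressor of the same family, stood on the other side of 0 at 0.31 (SE 0.14) and was higher in 5 of 5 preparations. Notch1, Notch2, Notch3, Jag1 and Hes6 lay between -0.01 and 0.23. The median over the 10 members was 0.06, against 0.0048 over the 13592 expressed genes.

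Hes5 was next measured in LP TTX and LP TTX/NMDA, libraries that took no part in its selection. When AP firing was stopped by TTX alone, Hes5 stood at 3.95, 5.70, 3.99, 6.99 and 3.57 CPM. When NMDA was added to TTX, it stood at 1.01, 1.82, 1.74, 2.59 and 1.36 CPM. The groups did not overlap. Hes5 fell with NMDA by 1.58 on the log2 scale (SE 0.21, edgeR quasi-likelihood test with Benjamini-Hochberg adjustment, adjusted p = 9.37e-07), and it was lower in 5 of 5 preparations. This difference, TTX/NMDA against TTX, is the active effect, the part of the response that comes with NMDA receptor stimulation once AP firing is already blocked.

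Against untreated controls, where Hes5 stood at 1.22, 4.26, 3.02, 4.34 and 2.29 CPM, the LP TTX/NMDA libraries were lower in 5 of 5 preparations. The log2 fold change was -0.94 (SE 0.23, adjusted p = 0.00293), and the ranges of the groups overlapped, with preparation 1 the lowest in both. LP TTX libraries were higher than controls in 5 of 5 preparations, with a log2 fold change of 0.61 (SE 0.20, adjusted p = 0.0675) that did not pass the test. That value passed once the preparation was a term of the model (0.64, adjusted p = 0.00573), and also without preparation 3, 6, 7 or 8 (adjusted p = 0.0216 to 0.0461).

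Comparisons that used the 2 h Bic libraries are described for Hes5 without a test. Hes5 differed by 0.07 (SE 0.22) between 2 h Bic and control, by 0.54 (SE 0.18) between LP TTX and 2 h Bic, and by -1.04 (SE 0.21) between LP TTX/NMDA and 2 h Bic, all as log2 fold changes. LP TTX/NMDA was lower than 2 h Bic in 5 of 5 preparations. Ordered by mean, Hes5 ran from LP TBOA (1.18 CPM) through LP TTX/NMDA (1.70), SP TTX/NMDA (2.18), SP TTX (2.43), 0.5 h Bic (2.66), 1 h Bic (2.73), control (3.03) and 2 h Bic (3.36) to LP TTX (4.84). The ranges of neighboring conditions overlapped at every step of that order.

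**Figure D2:**
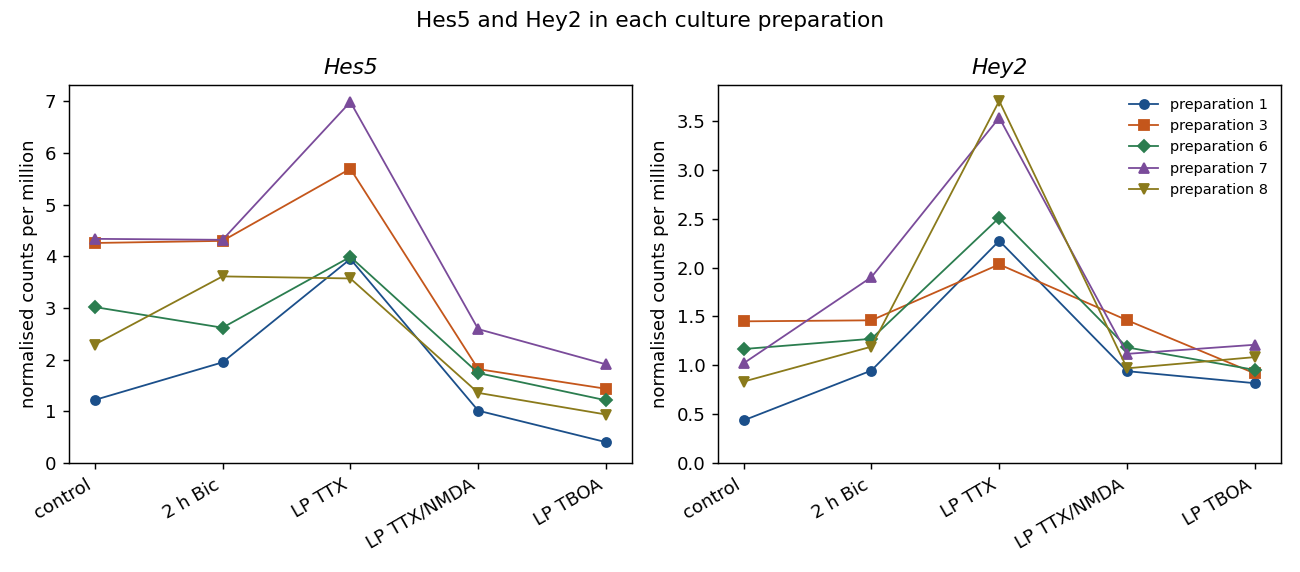
Normalised read counts in CPM (y axis, linear from 0) of Hes5 (left) and Hey2 (right) in control, 2 h Bic and the 3 LP interventions (x axis), with 1 line for each of 5 culture preparations. All 5 lines of Hes5 drop from LP TTX to LP TTX/NMDA and are lower in LP TBOA than in 2 h Bic, and all 5 lines of Hey2 peak in LP TTX.

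In the SP, Hes5 was at 1.68, 2.82, 2.79, 2.603 and 2.28 CPM with TTX and at 1.56, 2.84, 2.17, 2.87 and 1.46 CPM with TTX/NMDA. The 2 sets overlapped, and the log2 fold change was -0.17 (SE 0.19, adjusted p = 0.668 by edgeR). The active effect on Hes5 was then compared between protocols in 1 model over the 4 groups. The LP value minus the SP value was -1.39 on the log2 scale (SE 0.31, adjusted p = 0.00575), with the same sign in 5 of 5 preparations.

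Hey2 (ENSMUSG00000019789, chr10:30832359-30842801, minus strand) encodes a Hairy-related repressor that, like Hes5, is switched on by the Notch intracellular domain. In LP TTX it stood at 2.28, 2.03, 2.51, 3.54 and 3.71 CPM. In 2 h Bic it stood at 0.946, 1.46, 1.27, 1.90 and 1.19 CPM, and in controls at 0.435, 1.45, 1.17, 1.02 and 0.833 CPM. No library of any other condition reached the lowest LP TTX library, and LP TTX was the only step in the order of any member's condition means at which neighboring ranges did not overlap. Hey2 rose with TTX in the LP by 1.04 against 2 h Bic (log2, SE 0.20, adjusted p = 0.00083 by edgeR) and by 1.45 against control (SE 0.22, adjusted p = 6.35e-06), in each case in 5 of 5 preparations.

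With TTX/NMDA, Hey2 was at 0.940, 1.46, 1.18, 1.12 and 0.969 CPM, below every LP TTX library. It fell by 1.33 on the log2 scale (SE 0.20, adjusted p = 6.96e-06 by edgeR), and against control the log2 fold change was 0.14 (SE 0.25, adjusted p = 0.732), which did not pass. In the SP, the active effect on Hey2 was -0.05 (SE 0.22, adjusted p = 0.922). The difference between the protocols was -1.26 (SE 0.29, adjusted p = 0.00803), and it did not pass without preparation 7 (-1.13, adjusted p = 0.0563).

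Hey1 (ENSMUSG00000040289, chr3:8663359-8667256, minus strand), the closest relative of Hey2 among the members, moved in the same directions with smaller steps. LP TTX libraries held 30.3, 30.2, 28.02, 29.02 and 24.2 CPM and LP TTX/NMDA libraries 23.3, 24.5, 22.1, 24.9 and 18.2 CPM. Preparation 8 was the lowest in both, and its LP TTX value lay within the range of LP TTX/NMDA. Hey1 fell by 0.33 in the LP active effect (log2, SE 0.09, adjusted p = 0.00494 by edgeR) and was higher in LP TTX than in control by 0.34 (SE 0.09, adjusted p = 0.0137). The latter call was lost without preparation 1, 6 or 7 (adjusted p = 0.0539 to 0.0708).

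Hes1 (ENSMUSG00000022528, chr16:30064384-30067796, plus strand) encodes a repressor that many signals besides Notch can induce. It stood at 2.73, 2.56, 2.31, 2.74 and 2.38 CPM after 2 h of Bic and at 4.04, 4.05, 3.45, 4.58 and 3.98 CPM in LP TTX, with no overlap. Hes1 rose by 0.67 in this passive effect (log2, SE 0.14, adjusted p = 0.00216 by edgeR). With TTX/NMDA it was at 4.22, 3.38, 2.99, 3.48 and 3.16 CPM, and its active effect of -0.23 (SE 0.14, adjusted p = 0.275) did not pass. Against 2 h Bic, Hes1 was higher with TTX/NMDA by 0.44 (SE 0.15, adjusted p = 0.030), a call that was lost without preparation 1, 3 or 6 (adjusted p = 0.0525 to 0.118) and when all 45 libraries shared 1 fit (adjusted p = 0.0686).

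Hes6 (ENSMUSG00000067071, chr1:91411483-91414038, minus strand), which antagonizes HES1 and promotes neuronal differentiation, was not called in any of the 12 comparisons tested. Its condition means ran from 19.9 CPM in LP TTX to 23.8 CPM in LP TTX/NMDA. The active effect in the LP was 0.25 (log2, SE 0.10, adjusted p = 0.0693 by edgeR), higher in 5 of 5 preparations, and it passed with the preparation as a term (0.27, adjusted p = 0.00121).

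All 3 receptors, the membrane proteins that receive the signal, rose in the LP active effect. Notch1 (ENSMUSG00000026923, chr2:26457903-26516663, minus strand) stood at 14.7, 13.3, 8.25, 13.3 and 8.23 CPM in LP TTX and at 28.7, 20.99, 16.4, 29.3 and 18.1 CPM in LP TTX/NMDA. Every TTX/NMDA library was above every TTX library. Notch1 rose by 0.97 (log2, SE 0.15, adjusted p = 1.26e-05 by edgeR), in 5 of 5 preparations. Notch2 (ENSMUSG00000027878, chr3:98013527-98150361, plus strand) rose by 0.76 (SE 0.14, adjusted p = 0.000116), from a range of 10.3 to 16.4 CPM to one of 17.8 to 31.4 CPM. Notch3 (ENSMUSG00000038146, chr17:32120820-32166852, minus strand) rose by 0.89 (SE 0.14, adjusted p = 1.72e-05), from 9.82 to 14.3 CPM up to 16.7 to 31.5 CPM. The ranges did not overlap for either gene.

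Against control, the log2 fold changes in LP TTX/NMDA were 1.21 for Notch1 (SE 0.13, adjusted p = 7.36e-09), 0.88 for Notch2 (SE 0.13, adjusted p = 4.54e-06) and 1.01 for Notch3 (SE 0.14, adjusted p = 5.21e-07). Against 2 h Bic, the total effect, they were 0.72, 0.62 and 0.68, and all 3 passed. In LP TTX against control the receptors had log2 fold changes of 0.10 to 0.23, and none passed. Notch1 was also the only member called after Bic alone, with 0.47 at 2 h (SE 0.11, adjusted p = 0.00306), where it was 14.4, 14.4, 12.8, 15.5 and 11.6 CPM against 8.70, 9.51, 8.61, 12.3 and 9.53 CPM in controls. Preparation 7 of the controls lay within the 2 h Bic range. That call was lost when all 45 libraries shared 1 fit (adjusted p = 0.105).

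The ligands went different ways. Jag1 (ENSMUSG00000027276, chr2:137081456-137116644, minus strand) was at 4.72, 6.14, 3.27, 5.34 and 3.90 CPM in LP TTX and at 8.58, 10.1, 8.21, 10.3 and 6.81 CPM in LP TTX/NMDA, without overlap. It rose by 0.88 (log2, SE 0.15, adjusted p = 2.75e-05 by edgeR) and stood above control by 0.95 (SE 0.14, adjusted p = 3.04e-06). Dll1 (ENSMUSG00000014773, chr17:15367354-15376872, minus strand) was at 4.17, 5.48, 4.75, 3.93 and 4.84 CPM after 2 h of Bic and at 6.48, 7.79, 7.35, 6.58 and 5.90 CPM in LP TTX. All LP TTX values were the higher ones, and Dll1 rose by 0.55 in the passive effect (SE 0.12, adjusted p = 0.00399). Its active effect was -0.31 (SE 0.12, adjusted p = 0.0695), lower in 5 of 5 preparations, and it passed with the preparation as a term (-0.27, adjusted p = 0.0160) and in DESeq2 (-0.30, adjusted p = 0.0279).

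**Figure D3:**
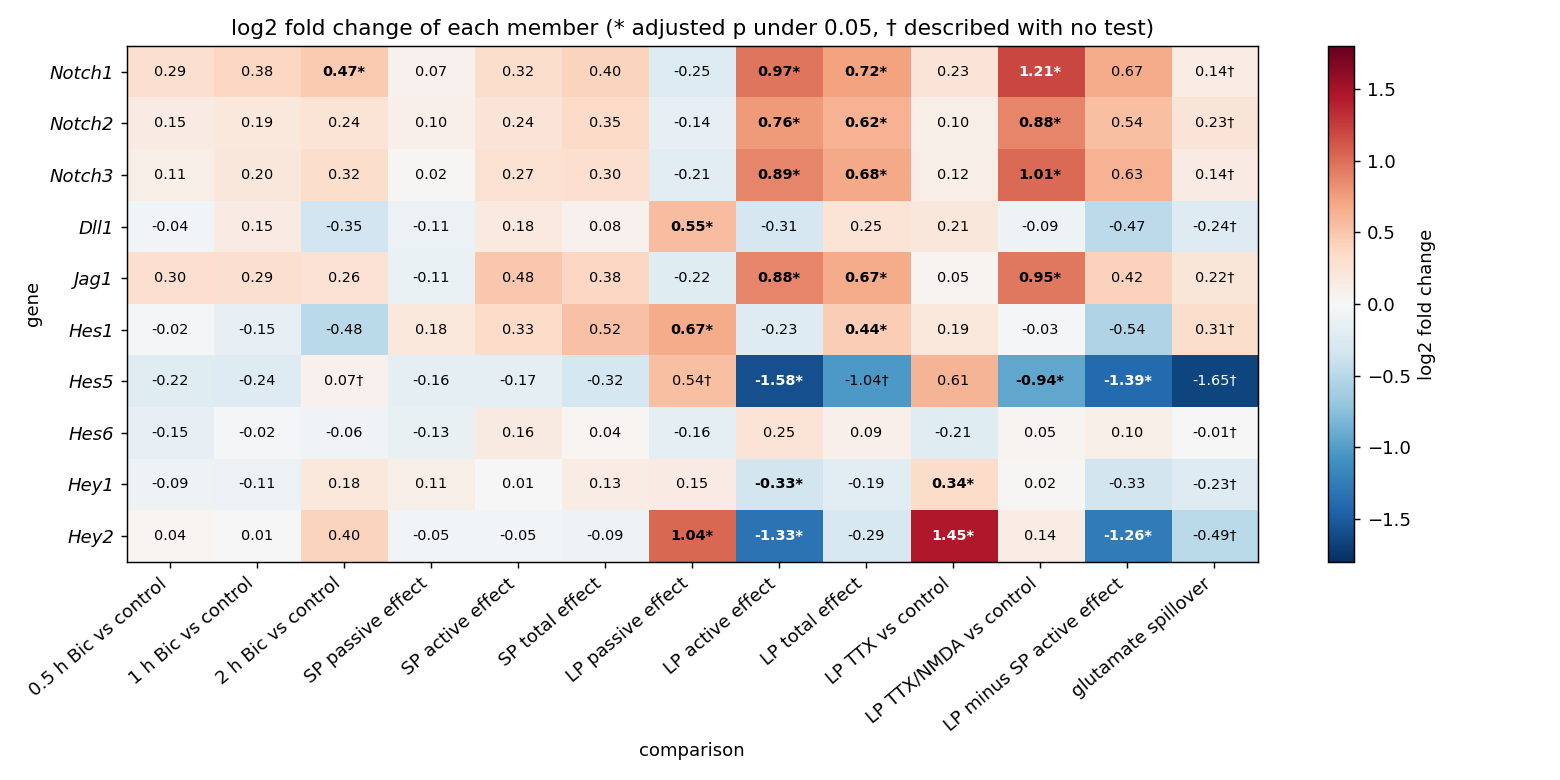
Log2 fold change (color and number in each cell) of the 10 members (y axis) in 12 tested comparisons and the described TBOA comparison (x axis), where an asterisk marks an adjusted p under 0.05 and a dagger a value described with no test. The LP active effect column holds 4 positive calls (Notch1, Notch2, Notch3, Jag1) and 3 negative ones (Hes5, Hey1, Hey2).

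Counted over the members, 7 of 10 were called in the LP active effect, 4 higher and 3 lower. In that comparison 23.3% of all genes tested and 46.9% of the 13592 expressed genes were called, and the members' count is to be read against those shares. With the preparation as a term (genes kept by filterByExpr, of which 62.1% were called), 9 of 10 members passed, with Dll1 and Hes6 added. The median log2 fold change over the members was 0.01, against -0.01 over the expressed genes. In LP TTX/NMDA against control, 5 of 10 members were called, 4 higher and 1 lower, beside 19.5% of all genes tested and 36.8% of expressed genes.

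The LP passive effect called 3 of the 9 members with a test, Dll1, Hes1 and Hey2, all higher, beside 4.65% of all genes and 10.4% of expressed genes. With the preparation as a term, 8 of 9 passed (background 32%), and Notch1, Notch3, Jag1 and Hes6 were lower while Hey1 was higher. The LP total effect called 5 of 9, all higher (Notch1, Notch2, Notch3, Jag1 and Hes1), beside 22.8% of all genes and 45.3% of expressed genes. The model with preparation added Dll1 as higher and Hey1 as lower, 7 of 9, beside 56.6%. LP TTX against control called 2 of 10, Hey1 and Hey2, both higher, beside 6.75% of all genes and 14.4% of expressed genes. There the preparation term added Hes5 as higher and Hes6 as lower, 4 of 10, beside 24.1%.

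After 0.5 h of Bic, edgeR called 0 of 10 members, with 1 at an unadjusted p under 0.05, and DESeq2 also called 0. The background was 0.289% of all genes and 0.574% of expressed genes. After 1 h of Bic the counts were again 0, 1 and 0, beside 1.16% and 2.39%. Notch1 passed at 1 h with the preparation as a term (0.38, adjusted p = 0.0201, background 4.07%) and without preparation 8 (0.46, adjusted p = 0.0472). After 2 h, 1 of 9 was called (Notch1), beside 9.02% and 18.6%. With the preparation as a term 4 of 9 passed there, Notch1, Notch3 and Hey1 higher and Dll1 lower, beside 29.3%. A further member was called without preparation 6 (Hes1, -0.61) or without preparation 8 (Notch3, 0.36), beside 2391 of 29940 and 2636 of 30275 genes tested.

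In the SP, the passive effect called 0 of 10 by edgeR, 0 at an unadjusted p under 0.05 and 0 by DESeq2, beside 0.268% of all genes and 0.544% of expressed genes. The SP active effect called 0 of 10, with 4 at an unadjusted p under 0.05 and 0 by DESeq2, beside 4.28% and 9.54%. The SP total effect called 0 of 10, with 5 at an unadjusted p under 0.05 and 0 by DESeq2, beside 4.30% and 9.38%. These SP counts depended on how preparations were treated. With the preparation as a term, the active effect called Notch1 (0.29), Jag1 (0.44) and Hes1 (0.32) as higher, 3 of 10 beside 16.2%. The total effect then called Notch1, Notch2, Notch3, Jag1 and Hes1 as higher, 5 of 10 beside 27.3%.

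The preparations differed in the SP active values of the receptors and Jag1. For Notch1, SP TTX libraries held 17.1, 12.4, 13.3, 15.04 and 10.1 CPM and SP TTX/NMDA libraries 21.2, 17.4, 13.1, 22.3 and 10.8 CPM, so preparations 6 and 8 differed least between the conditions. For Jag1 the values were 5.13, 6.83, 4.89, 4.85 and 4.32 CPM and 7.91, 8.63, 6.15, 9.33 and 4.25 CPM, and preparation 8 alone was not higher with TTX/NMDA. Without preparation 8, the SP active effect called Notch1, Notch2, Notch3 and Jag1 as higher (4 of 10), beside 1828 of 31052 genes tested. The SP total effect then called those 4 and Hes1 (5 of 10), beside 2068 of 30593 genes tested. Leaving out preparation 3, 6 or 7 called 1 member of the total effect each time (Hes1 or Notch1), beside 1201 of 30633, 926 of 30520 and 1004 of 30569 genes tested.

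Between the protocols, the LP active effect differed from the SP active effect for 2 of 10 members, Hes5 and Hey2, beside 2.57% of all genes and 6.09% of expressed genes. With the preparation as a term 9 of 10 differed, all but Hes6, beside 25%. In that model the LP minus SP difference was positive for Notch1, Notch2, Notch3 and Jag1 and negative for Dll1, Hes1, Hes5, Hey1 and Hey2. Without preparation 8, 5 members differed, beside 1128 of 34065 genes tested.

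Markers of other cell types moved with the LP active effect. Of 48 marker genes, 28 were higher and 6 lower in LP TTX/NMDA than in LP TTX, beside 23.3% of all genes and 46.9% of expressed genes called. Those higher included 9 of 10 astrocyte markers (the other 1 was lower), 8 of 8 radial glia and progenitor markers, and 5 of 7 oligodendrocyte lineage markers. Their log2 fold changes were of the same order as those of the receptors, with 0.80 for Gfap, 0.90 for Slc1a3, 0.85 for Nes and 0.90 for Olig1. Summed over the list, radial glia and progenitor markers ran from 438 to 706 CPM in LP TTX and from 785 to 1320 CPM in LP TTX/NMDA. Astrocyte markers ran from 1087 to 1658 CPM and from 1324 to 2340 CPM, and oligodendrocyte lineage markers from 101 to 167 CPM and from 159 to 312 CPM. The 3 excitatory neuron markers were all lower, from 1186 to 1397 CPM down to 622 to 854 CPM. Of 3 inhibitory neuron markers 1 was called, as higher, with sums of 1414 to 2067 CPM and 1565 to 2302 CPM. Of 5 general neuron markers 2 were called, as lower, with sums of 5450 to 5856 CPM and 4546 to 4884 CPM. Endothelial and mural markers summed to 18.6 to 22.2 CPM and 26.4 to 31.4 CPM, and microglia markers to 5.4 to 7.4 CPM and 6.3 to 8.8 CPM. The part of these shifts in the rise of Notch1, Notch2, Notch3 and Jag1 was not tested. Hes5, Hey1 and Hey2 went against the glial and progenitor lists, which were higher.

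In the LP passive effect 1 of 48 marker genes was higher (Sox2) and 2 were lower (Sox9 and Olig2), beside 4.65% of all genes and 10.4% of expressed genes called. Radial glia and progenitor markers summed to 508 to 724 CPM in 2 h Bic, against the 438 to 706 CPM in LP TTX given above. Any part of cell composition in the passive rises of Dll1, Hes1 and Hey2 was not tested. In the TBOA libraries these sums were 562 to 791 CPM for radial glia and progenitors and 1305 to 1691 CPM for astrocytes, against 1130 to 1624 CPM for astrocytes in 2 h Bic. The sums of both lists overlapped between TBOA and 2 h Bic, each with a higher mean in TBOA (astrocytes 1460 against 1313 CPM, radial glia and progenitors 683 against 605 CPM). Any part of cell composition in the lower Hes5 with TBOA was not tested.

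**Figure D4:**
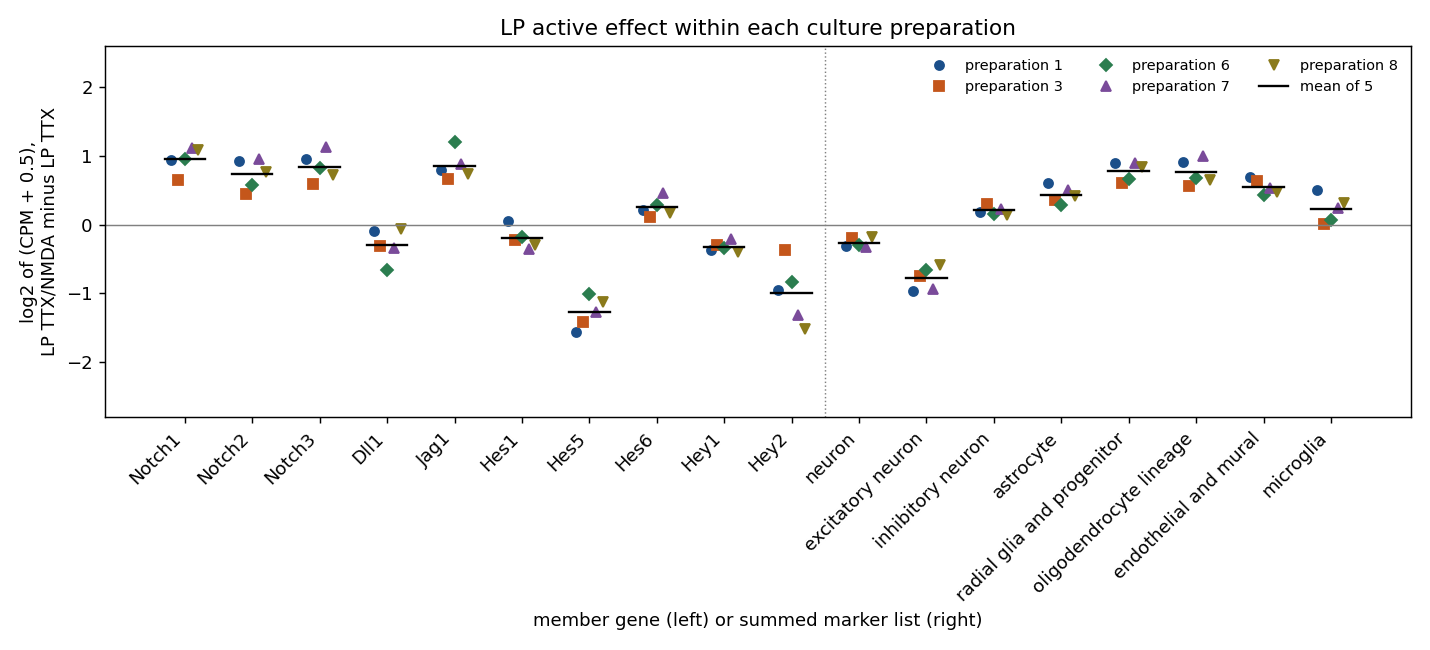
Difference between LP TTX/NMDA and LP TTX in log2 of CPM plus 0.5 (y axis) within each of 5 culture preparations (symbols; the line is their mean) for the 10 members (left of the dotted line) and for the summed CPM of 8 marker lists (right). Notch1, Notch2, Notch3 and Jag1 lie above 0 in all 5 preparations together with the astrocyte, radial glia and oligodendrocyte lineage sums, and Hes5, Hey1 and Hey2 lie below 0 in all 5.

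The other 57 genes listed for the pathway were read in the same fits, with 56 having a read in the LP active comparison (Neurog1 had none). Of these, 8 were higher and 17 lower in the LP active effect, and the median log2 fold change over the 56 genes was 0.02. Beside the 23.3% of all genes and 46.9% of expressed genes called in that comparison, these 25 calls are near the share of expressed genes and are no result about the pathway as a list. Of the machinery that ubiquitinates ligands for endocytosis, 3 of 4 genes fell, led by Mib1 at -0.68 (SE 0.07, adjusted p = 1.75e-08 by edgeR), Neurl1a at -0.42 and Neurl1b at -0.22. Of 13 genes of the nuclear complex and its co-repressors, 2 rose and 6 fell. The coactivator Maml2 rose by 0.77 (adjusted p = 0.000193), while the co-repressors Tle4 (-0.75) and Spen (-0.57) fell.

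Receptor processing changed in both directions. The protease Adam17 rose by 0.52 (adjusted p = 0.000347 by edgeR), and the convertase Furin (-0.27), which matures the receptor, fell as 1 of 3 lower genes of 10. Lfng, a glycosyltransferase that tunes the choice of ligand, rose by 0.81 (adjusted p = 0.000289), the only one of 5 glycosylation genes called. Of 8 genes of receptor turnover, Numb rose by 0.47 and Dtx4 (-0.49) and Fbxw7 (-0.38) fell, as did 1 more. Among other ligands, Dll3 rose by 0.53 (adjusted p = 0.0394), the only one of 6. Among other targets, Nrarp, a feedback inhibitor of Notch, rose by 0.56 (adjusted p = 0.0168), the only one of 5.

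**Figure D5:**
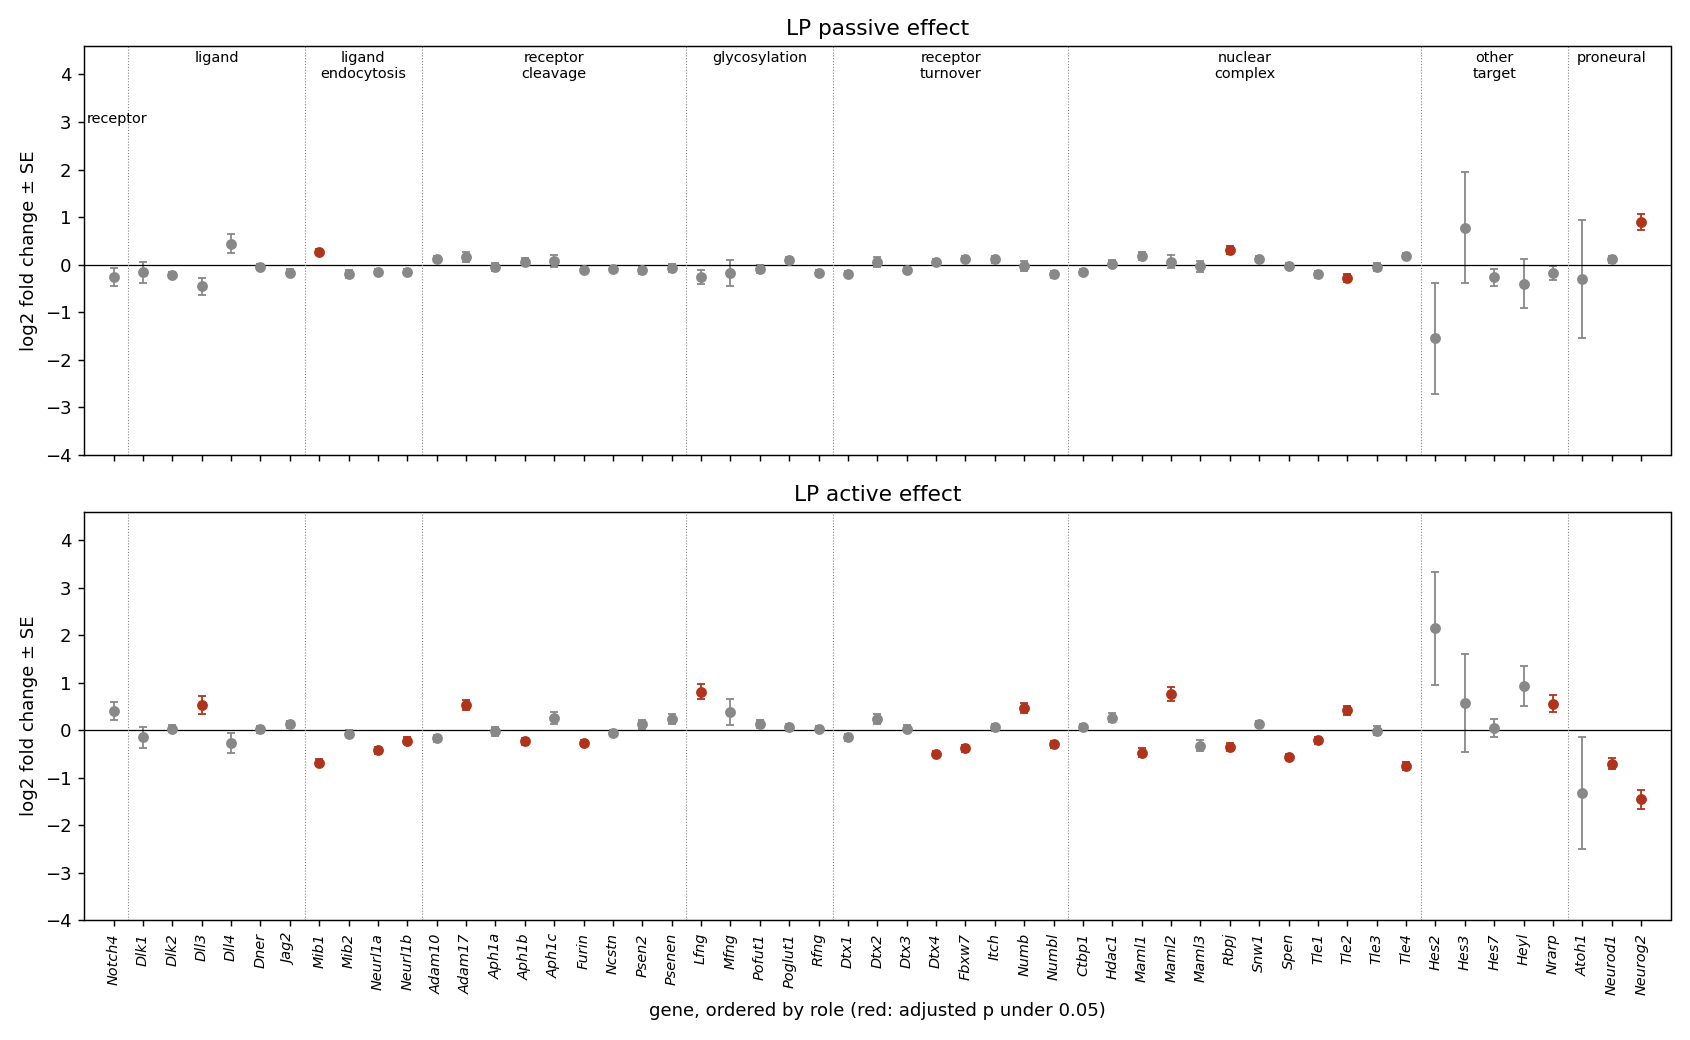
Log2 fold change ± SE (y axis) of 53 of the other Notch pathway genes ordered by role (x axis) in the LP passive effect (top) and the LP active effect (bottom), with genes at an adjusted p under 0.05 in red. Genes that are not reported here by name are not drawn, so the plot shows 7 higher and 15 lower of the 8 and 17 called in the LP active effect, and 3 higher and 1 lower of the 3 and 3 called in the LP passive effect. Neurog2 is the lowest called gene drawn in the LP active effect and has the opposite sign in the LP passive effect.

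Proneural genes, which HES factors repress, also changed. Neurog2, an inducer of glutamatergic neurons, averaged 3.85 CPM in LP TTX (SD 0.73, n = 5) and 1.38 CPM in LP TTX/NMDA (SD 0.54, n = 5), with no overlap. It fell by 1.45 (log2, SE 0.20, adjusted p = 1.84e-06 by edgeR), and Neurod1 fell by 0.70 (adjusted p = 2.94e-05). In the LP passive effect Neurog2 rose by 0.90 (SE 0.17, adjusted p = 0.000613). Both comparisons share the LP TTX libraries, so their signs are not independent.

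At 2 h of Bic the target Hes7 rose, from 0.895 to 2.10 CPM (log2 fold change 1.22, adjusted p = 3.69e-05 by edgeR). In all, 8 of 56 pathway genes were higher and 5 lower at 2 h, beside 9.02% of all genes and 18.6% of expressed genes called, among them Tle2 (0.34), Tle3 (0.33), Dlk2 (0.33) and Fbxw7 (0.30) higher and Itch (-0.31), Neurl1b (-0.31), Poglut1 (-0.28) and Adam10 (-0.27) lower.

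Of the remaining comparisons, the LP passive effect called 3 pathway genes higher and 3 lower of 56, beside 4.65% of all genes and 10.4% of expressed genes. Besides Neurog2, Mib1 rose by 0.26 and Rbpj, the DNA-binding partner of the Notch intracellular domain, by 0.30 (adjusted p = 0.0299 by edgeR), and Tle2 fell (-0.29). The LP total effect called 7 higher and 17 lower of 56, near the 45.3% called among expressed genes (22.8% of all genes), with all 4 genes of ligand endocytosis lower. In the SP active effect, which called 4.28% of all genes and 9.54% of expressed genes, Neurod1 (-0.50), Spen (-0.33), Tle4 (-0.33), Neurl1a (-0.30), Fbxw7 (-0.27) and Mib1 (-0.25) fell and Tle2 (0.35) rose. The difference between LP and SP active effects passed for Neurog2 (-1.19, adjusted p = 0.0152), as it did for Hes5 and Hey2.

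Over the 45 libraries, with preparation means removed and log2 CPM correlated, the receptors and Jag1 formed 1 set (Pearson r from 0.83 to 0.93). Hes5, Hey1 and Hey2 formed a looser one (r from 0.52 to 0.68), and Hes5 ran against the receptors and Jag1 (r from -0.54 to -0.44). The correlation of Hes5 with Hes1 was 0.10. These values describe 45 libraries from 5 shared preparations and 9 conditions, and no test is attached to them. Among 13591 other expressed genes, those most like Hes5 were Zcchc3 (r = 0.81), Frat1 (0.78), Dyrk3 (0.78), Klhl21 (0.78) and Ccnf (0.77), and those least like it were 4930402H24Rik (-0.69), Hlx (-0.64) and Pnrc1 (-0.63). For Hes1 the most alike were Dcaf13 (0.73), Eif3e (0.71), Med7 (0.70), Tyw5 (0.70) and Mrpl51 (0.69), and the least Gab2 (-0.69), Shank1 (-0.66) and Dscaml1 (-0.65).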

How the data were processed

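RNA of 45 libraries (9 conditions, 5 culture preparations each) was measured by strand-specific poly-A sequencing, single-end with 75 cycles. The authors aligned reads with STAR 2.5.4b to GRCm38 with Ensembl release 94 and counted sense reads per gene with featureCounts 1.6.5, leaving out multi-mapping and multi-overlapping reads, after bcl2fastq 2.20.0.422, and the counts were deposited without normalization. They tested with DESeq2, which here is an alternative. That counting lowers genes with near-identical copies.

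From the counts, each comparison was fitted on its own groups with edgeR 4.0.16 (R 4.3.3), TMM factors and the quasi-likelihood test, over genes with at least 1 read, and called at a Benjamini-Hochberg adjusted p under 0.05. CPM values use TMM factors over all 45 libraries. Depth of 11316580 to 81129276 reads sets the precision of Hes5 and Hey2 above all. The preparation numbers come from the labels and mark shared cultures. Deviations from group means correlated at a mean r of 0.43 between same-numbered libraries (180 pairs) and -0.11 between others (720 pairs), with single pairs down to -0.29. Alternatives were median-of-ratios (RLE) factors, filterByExpr, DESeq2 1.42.0, the replicate block with filterByExpr, 1 fit of all libraries, and leaving out each preparation.

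The members and lists were chosen with earlier results of these data known. Named genes were the members, at most 3 called pathway genes per role with the largest change and a mean of at least 10 reads per library, defining markers, and the genes most and least like Hes5 and Hes1. Symbols came from a name table that matched 54409 of 54532 identifiers. Coordinates are from GENCODE M21 (Ensembl 96), the authors' build in a later release, and promoters from RefSeq (GRCm38.p6). Scripts were tested on simulated data. Some pathway genes are not reported here by name.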

Additional observations from a re-analysis of the deposited data

Results flagged for a closer look

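In 90 groups of 5 libraries (10 members in 9 conditions), 4 had 1 library far from the others by Dixon's ratio, about the 1 in 20 that chance flags. Preparation 7 of the controls held 12.3 CPM of Notch1, where the other 4 held 8.61 to 9.53. Preparation 8 after 1 h of Bic held 18.3 CPM of Hey1, where the others held 21.04 to 22.04. Preparation 7 after 0.5 h of Bic held 1.53 CPM of Hey2, against 0.800 to 0.991, and preparation 3 after 1 h of Bic held 1.55 CPM of Hey2, against 0.789 to 0.955. These libraries belong to comparisons in which the gene was not called, except the control library of Notch1.

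The active effect differed between the protocols, by the test of the difference itself, for Hes5 (-1.39, log2, LP minus SP) and Hey2 (-1.26), both lower in 5 of 5 preparations. Hey2 did not pass without preparation 7. In the LP both the AP firing and the intervention lasted longer than in the SP, and these cannot be told apart.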

How the results depend on the processing

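RLE factors and filterByExpr left every count of members called within 1.5 times its value, as did DESeq2 and the fit of all 45 libraries, although that fit called Dll1 (-0.34, adjusted p = 0.0225) in place of Notch1 at 2 h of Bic. The replicate block with filterByExpr moved 7 counts: 1 h Bic from 0 to 1, 2 h Bic from 1 to 4, SP active from 0 to 3, SP total from 0 to 5, LP passive from 3 to 8, LP TTX against control from 2 to 4, and LP minus SP active from 2 to 9. It also added Dll1 and Hes6 to the LP active effect and Dll1 and Hey1 to the LP total effect, and it changed no other call of a member. Without 1 preparation at a time, the counts ranged from 0 to 1 (1 h Bic), 1 to 2 (2 h Bic), 0 to 4 (SP active), 0 to 5 (SP total), 1 to 3 (LP TTX against control) and 1 to 5 (LP minus SP active). Of 120 alternative counts, 18 moved, and of 580 alternative values of members called under any setting, 58 passed newly, 9 no longer passed and none changed sign. All 130 alternative values described without a test, the TBOA fold change of Hes5 included, moved by less than the spread between preparations. The cause of these changes was not tested. Low read numbers limit Hes5 and Hey2, with as few as 5 reads of Hey2 in a library.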
